A study of Homo sapiens with 6 samples.

Results

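Replication origin licensing and fork genes encode the proteins that mark an origin of DNA replication, load the replicative helicase there, fire it, and copy and repackage DNA behind it. The genes described here are a list of 54 symbols, picked by name for their known function at a time when earlier results of these data were known. They were looked up among 20683 gene symbols counted in HT-1080 cells. Of the 54, 53 had a row in the count tables, and 51 passed the filter on low counts and were tested. PRIM2 was not analysed here, ORC4 had too few counts to test, and RPA3 had none.

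The libraries came from HT-1080, an established human fibrosarcoma line, grown as 1 line with serum in the medium. One group of 3 libraries was exposed for 4 h to SLV-8472-01, which the series describes as an inhibitor of the kinase IRAK4, at a labelled dose of 5 mM. It is left unsaid there if this dose refers to the culture medium or to a stock solution, so the unit is given as labelled. The other group of 3 libraries had 0.1% DMSO for 4 h. The 3 libraries of a group are described as biological replicates, so p-values measure the spread between those cultures of a single line. A targeted amplicon panel was used, in which part of each transcript is amplified by multiplex PCR. A count thus reports that part alone, and levels are not compared between genes, apart from a correlation given below.

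Inhibitor libraries held 7644478 to 11427779 counts and DMSO libraries 12003104 to 15336351, so depth differed with the group. With all libraries thinned to the smallest total, 35 of the 51 tested genes fell, against 37 at full depth. Over all tested genes, 997 of 10988 fell in thinned libraries and 1168 of 11391 at full depth. Of 10 mesenchymal marker genes, 9 were tested and 5 of them rose, where 9.92% of all tested genes rose. The summed level of the 10 was 8379 to 10334 CPM in inhibitor libraries and 7600 to 8691 CPM in DMSO libraries. The part of this in the results was not tested. CPM stands for the count per 1000000 counts after TMM scaling. All 5 epithelial markers stayed under 1 CPM in both groups, with CDH1 at 0 counts in every library. The haematopoietic markers PTPRC and CD3E had 0 counts in every library. Of 5 endothelial markers, 4 were under 1 CPM in both groups.

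In a dividing cell, the origin recognition complex (ORC) binds origins in G1 and, with CDC6 and CDT1, loads rings of MCM2 to MCM7 onto DNA, a step called licensing. Geminin, the product of GMNN, binds CDT1 and blocks licensing outside G1. In S phase the kinase CDC7 with its activator DBF4 lets CDC45 and GINS join the MCM ring to form the CMG helicase, behind which polymerases, the sliding clamp PCNA and histone chaperones work. Many of these genes are transcribed around the entry into S phase under the E2F transcription factors, whose sites lie near the start of the gene.

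Promoter stretches of 7 genes are shown here because the members moved together, and to let strongly and weakly changed genes be compared by eye. GMNN, MCM10 and POLE2 had the largest falls of their role groups, ORC3 and RFC4 had small changes that were not called, and CDC6 and CHAF1A were added after their values were seen. ATAD5 and FAM111B, which had the largest falls of the other 2 role groups, are named only. Each run holds 150 bases before the annotated start and 30 bases from it on, from the RefSeq table of GRCh38.p14, read 5′ to 3′ along the gene's strand. Capitals mark E2F-type matches (TTNNCGC, in which each N is C or G) and the NF-Y-type match CCAAT, each on either strand. GMNN lies at chr6:24774787-24774966 (plus), MCM10 at chr10:13161408-13161587 (plus), POLE2 at chr14:49688185-49688364 (minus), ORC3 at chr6:87589985-87590164 (plus), RFC4 at chr3:186806453-186806632 (minus), CDC6 at chr17:40287729-40287908 (plus) and CHAF1A at chr19:4402490-4402669 (plus).
GMNN: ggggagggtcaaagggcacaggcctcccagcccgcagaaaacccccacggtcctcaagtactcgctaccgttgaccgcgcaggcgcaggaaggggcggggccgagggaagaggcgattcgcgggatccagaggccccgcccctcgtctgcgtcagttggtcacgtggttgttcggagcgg
MCM10: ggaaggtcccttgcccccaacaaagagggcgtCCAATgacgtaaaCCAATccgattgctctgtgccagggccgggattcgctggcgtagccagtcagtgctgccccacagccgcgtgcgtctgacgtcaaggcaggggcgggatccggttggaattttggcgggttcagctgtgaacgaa
POLE2: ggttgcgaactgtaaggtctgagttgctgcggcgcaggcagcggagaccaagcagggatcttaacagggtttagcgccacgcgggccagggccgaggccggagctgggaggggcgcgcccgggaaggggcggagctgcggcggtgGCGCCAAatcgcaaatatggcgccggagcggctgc
ORC3: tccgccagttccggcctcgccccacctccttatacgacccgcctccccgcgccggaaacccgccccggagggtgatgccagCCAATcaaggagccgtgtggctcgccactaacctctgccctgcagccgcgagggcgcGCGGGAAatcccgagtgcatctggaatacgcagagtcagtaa
RFC4: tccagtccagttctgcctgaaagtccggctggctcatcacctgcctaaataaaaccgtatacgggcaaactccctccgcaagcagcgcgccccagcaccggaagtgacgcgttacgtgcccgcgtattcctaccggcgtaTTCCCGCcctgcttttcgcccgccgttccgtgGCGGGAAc
CDC6: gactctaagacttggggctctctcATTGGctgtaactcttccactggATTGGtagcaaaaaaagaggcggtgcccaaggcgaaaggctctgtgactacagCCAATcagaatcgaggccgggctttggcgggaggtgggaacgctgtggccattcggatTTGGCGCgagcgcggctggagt
CHAF1A: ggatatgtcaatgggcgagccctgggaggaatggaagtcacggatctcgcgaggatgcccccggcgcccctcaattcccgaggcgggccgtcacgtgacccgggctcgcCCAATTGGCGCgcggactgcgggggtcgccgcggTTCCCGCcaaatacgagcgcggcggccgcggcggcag

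The printed stretch of GMNN held neither motif and that of MCM10 held 2 CCAAT matches. Near spellings, such as ttggcgg in the stretches of MCM10 and CDC6, were not counted. ORC3 held 1 E2F-type and 1 CCAAT match, RFC4 2 E2F-type matches, and POLE2 1 E2F-type match. CDC6 had 1 E2F-type and 3 CCAAT matches, and CHAF1A 2 of each. The 2 CCAAT matches of CHAF1A overlap each other, 1 on each strand, and its first E2F-type match overlaps both. An E2F-type match was thus held by ORC3 and RFC4, which were not called, and by POLE2, CDC6 and CHAF1A, which fell. GMNN and MCM10 fell and held 0. Whether such matches go with the falls was not tested.

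After 4 h with the inhibitor, mRNA of most of these genes was lower than with DMSO. Of the 51 tested, 37 fell and 0 rose (edgeR quasi-likelihood test, adjusted p under 0.05), whereas of all 11391 genes tested 10.3% fell and 9.92% rose. No member had an unadjusted p under 0.05 in the upward direction, and none rose with DESeq2 or limma voom. The median log2 fold change of the 51 was -0.68, against 0.0034 over all tested genes, and 50 of the 51 had a negative sign. Every inhibitor library lay under every DMSO library for 43 of the 51, as it did for 18.7% of all tested genes. The falls were mostly moderate: 7 genes fell to under 50% of the DMSO level on the fitted scale. They were FAM111B, WDR76, GMNN, ATAD5, MCM10, CHAF1A and CDC6. Whether fewer cells were in S phase or each cell held less of these mRNAs cannot be told apart in bulk RNA.

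Summed over the 51 genes, the level was 2438, 2631 and 2381 CPM in inhibitor libraries and 3453, 3583 and 3565 CPM in DMSO libraries. The groups were apart in that sum. The median member stood at -0.66, -0.53 and -0.77 log2 units from its DMSO mean in the inhibitor libraries, and at -0.05, 0.02 and -0.01 in the DMSO libraries. By role, 5 of 8 tested origin recognition and licensing genes fell (median log2 fold change -0.75), 12 of 15 CMG and helicase loading genes (-0.65), 5 of 8 polymerase and primase genes (-0.50), and 10 of 15 clamp, maturation and chromatin assembly genes (-0.52). All 5 of the other S-phase genes fell (-0.81). The range of each role group overlapped that of every other, and no test of a difference between the groups was made.

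**Figure D1:**
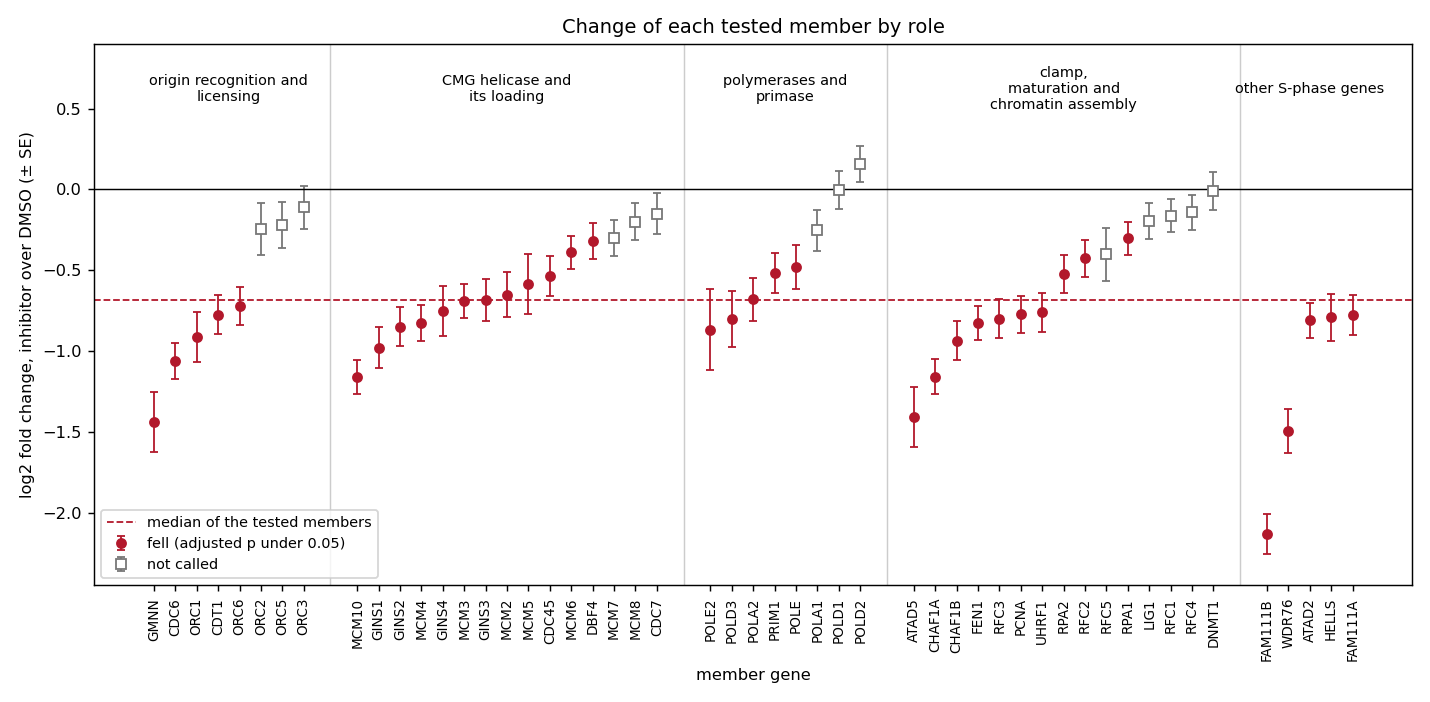
log2 fold change (inhibitor over DMSO, ± SE, 3 libraries a group) of each of the 51 tested genes, ordered within 5 role groups, with filled circles for genes that fell, open squares for genes not called, and a dashed line at the members' median of -0.68. Genes run from FAM111B at -2.13 to POLD2 at 0.16, and each of the first 4 role groups holds both called and uncalled genes.

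Among origin recognition and licensing genes, GMNN, CDC6, ORC1, CDT1 and ORC6 fell, and the core ORC subunits ORC2, ORC3 and ORC5 were not called. GMNN, the licensing inhibitor, had 3.41, 4.57 and 4.42 CPM in inhibitor libraries and 10.9, 12.5 and 9.72 CPM in DMSO libraries. These levels rest on 33 to 42 counts per inhibitor library and 117 to 194 per DMSO library, and the groups were far apart (log2 fold change -1.44 ± 0.19, SE, adjusted p = 1.04e-05). CDC6, the ATPase that joins ORC to receive the MCM ring, had 44.1, 56.4 and 49.6 CPM with the inhibitor and 102, 108 and 104 CPM with DMSO. The highest inhibitor library was far under the lowest DMSO library (log2 fold change -1.06 ± 0.11, adjusted p = 4.74e-07).

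ORC1, the largest ORC subunit, whose protein is degraded after G1 in human cells, had 9.33, 10.3 and 8.44 CPM with the inhibitor and 19.2, 19.1 and 14.7 CPM with DMSO. DMSO replicate 3 was the lowest of its group but still above every inhibitor library (log2 fold change -0.91 ± 0.16, adjusted p = 2.25e-04). CDT1, which brings MCM to ORC, had 30.8, 24.4 and 25.6 CPM with the inhibitor and 48.6, 46.6 and 43.6 CPM with DMSO. Its groups were apart too (log2 fold change -0.78 ± 0.12, adjusted p = 7.87e-05). ORC6, the smallest subunit, fell by 0.72 on the log2 scale, to 31.7 to 41.9 CPM with the inhibitor, against 59.7 to 63.8 CPM with DMSO.

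ORC2, ORC3 and ORC5, subunits of the ORC core, differed by less than the spread of the test allowed. ORC3 had 15.6, 13.9 and 14.6 CPM with the inhibitor and 16.2, 15.7 and 15.9 CPM with DMSO, groups that lay close together without overlap (log2 fold change -0.11 ± 0.13, adjusted p = 0.605). ORC5 had 12.4, 15.01 and 13.8 CPM with the inhibitor and 15.3, 16.5 and 16.1 CPM with DMSO (log2 fold change -0.22 ± 0.14, adjusted p = 0.283). ORC2 overlapped between groups, with 10.2, 13.1 and 13.3 CPM with the inhibitor and 12.03, 13.9 and 17.3 CPM with DMSO (log2 fold change -0.24 ± 0.16, adjusted p = 0.31). For ORC4, inhibitor libraries held 9, 7 and 4 counts and DMSO libraries 9, 9 and 2, under what the filter asks.

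In the CMG helicase and its loading, MCM10 and all 4 GINS genes fell, as did 5 of the 6 MCM ring genes. MCM10, which activates the assembled helicase, had 49.2, 53.3 and 54.1 CPM with the inhibitor and 111, 114 and 125 CPM with DMSO. The highest inhibitor library had less than 50% of the lowest DMSO library (log2 fold change -1.16 ± 0.11, adjusted p = 5.52e-08). GINS1, a GINS subunit, had 14.7, 13.8 and 14.1 CPM with the inhibitor and 28.1, 28.99 and 26.9 CPM with DMSO. Libraries within each group were close together (log2 fold change -0.98 ± 0.13, adjusted p = 8.36e-06).

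GINS2 had 34.8, 38.9 and 30.8 CPM with the inhibitor and 54.8, 63.8 and 70.5 CPM with DMSO (log2 fold change -0.85 ± 0.12, adjusted p = 3.40e-05). GINS3 had 17.4, 16.1 and 14.7 CPM with the inhibitor and 27.2, 26.1 and 24.4 CPM with DMSO (log2 fold change -0.68 ± 0.13, adjusted p = 6.38e-04). With GINS4 at -0.75 ± 0.15, the 4 subunits of this complex ran from -0.98 to -0.68 on the log2 scale. CDC45, the remaining partner of the CMG, fell by 0.54 on the log2 scale. Its adjusted p was 0.0039, and 0.0616 in the test against a fold of 1.2.

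Within the hexamer, the log2 fold change ran from -0.83 for MCM4 to -0.30 for MCM7. MCM4 had 96.0, 119 and 114 CPM with the inhibitor and 178, 216 and 189 CPM with DMSO, without overlap (log2 fold change ± SE, -0.83 ± 0.11, adjusted p = 1.51e-05). MCM3 (-0.69 ± 0.11), MCM2 (-0.65 ± 0.14) and MCM6 (-0.39 ± 0.10) fell as well. MCM6 was not called in the test against a fold of 1.2 (adjusted p = 0.223). MCM7 had 180.2, 172 and 134 CPM with the inhibitor and 199, 204 and 196 CPM with DMSO. It was just over the threshold (adjusted p = 0.0585) and was called with library totals as the scaling, with no count filter, with the replicate block, with limma voom and without inhibitor replicate 1 (adjusted p from 0.0167 to 0.0483).

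MCM5 was called (-0.59 ± 0.18, adjusted p = 0.0272), but its groups overlapped. It had 84.5, 98.2 and 42.6 CPM with the inhibitor and 125, 92.6 and 123 CPM with DMSO. Inhibitor replicate 3 was far under the other inhibitor libraries, and DMSO replicate 2 was under inhibitor replicate 2. DESeq2 did not call it (adjusted p = 0.289), nor was it called in the test against a fold of 1.2 (0.129) or without inhibitor replicate 3 (0.0877), DMSO replicate 1 (0.0871) or DMSO replicate 3 (0.102). Without inhibitor replicate 3 its log2 fold change was -0.31. In log2 counts, MCM4 over MCM7 was at -0.91, -0.53 and -0.24 in inhibitor libraries and at -0.17, 0.08 and -0.05 in DMSO libraries. That pair was picked after its values were seen, so its difference is given without a test.

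CDC7, the kinase that fires origins, had 17.9, 18.6 and 17.8 CPM with the inhibitor and 20.7, 20.3 and 19.4 CPM with DMSO. The gap was small and not called (log2 fold change -0.15 ± 0.13, adjusted p = 0.429). DBF4, its activating subunit, had 40.1, 48.5 and 43.9 CPM with the inhibitor and 52.1, 57.9 and 55.2 CPM with DMSO. The groups were apart and the call was marginal (log2 fold change -0.32 ± 0.11, adjusted p = 0.046). It was lost in 10 of the 16 alternatives, among them DESeq2 (adjusted p = 0.051), upper-quartile scaling (0.0661) and the omission of any 1 library other than inhibitor replicate 2. MCM8, an MCM relative that acts in recombination and not in the licensing ring, had 55.7, 68.6 and 68.3 CPM with the inhibitor and 70.0, 71.9 and 79.0 CPM with DMSO. It was not called (log2 fold change -0.20 ± 0.11, adjusted p = 0.222).

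**Figure D2:**
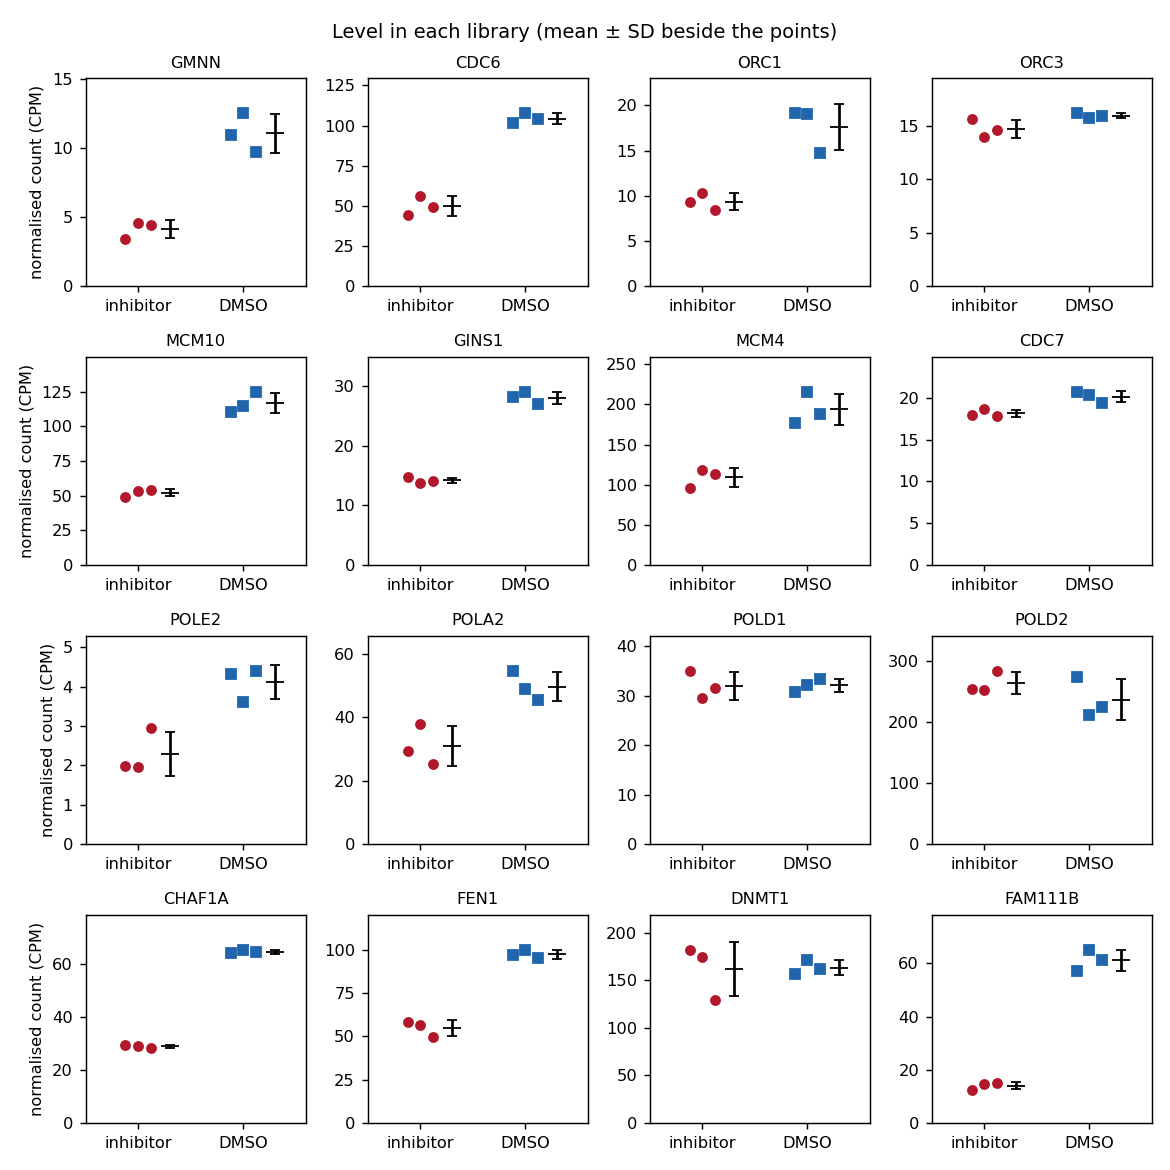
Normalised count (CPM, linear axes from 0) of 16 genes in each of the 3 inhibitor libraries (circles, left) and 3 DMSO libraries (squares, right), with the mean ± SD beside the points. The groups are far apart for GMNN, CDC6, MCM10, CHAF1A and FAM111B, close together for ORC3 and CDC7, and mixed for POLD1, POLD2 and DNMT1.

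Among the replicative polymerase genes, POLE and POLE2 of polymerase epsilon, POLA2, PRIM1 and the accessory subunit gene POLD3 fell. POLD1 and POLD2 did not pass the test. Outside the member list, the epsilon subunit gene POLE3 fell (log2 fold change -0.51, adjusted p = 0.00117). POLE4 was not called (log2 fold change -0.048, adjusted p = 0.833). POLD3 had 8.79, 11.9 and 6.83 CPM with the inhibitor and 18.3, 15.8 and 14.0 CPM with DMSO, which were apart (log2 fold change -0.80 ± 0.17, adjusted p = 0.00244). POLD1, the catalytic subunit of polymerase delta on the lagging strand, had 35.1, 29.5 and 31.5 CPM with the inhibitor and 30.8, 32.2 and 33.5 CPM with DMSO. Its groups were mixed and its log2 fold change was -0.0027 ± 0.12 (adjusted p = 0.988). POLD2, a further subunit, had 254, 253 and 284 CPM with the inhibitor and 274, 211 and 224 CPM with DMSO. It was the only tested member with a positive log2 fold change (0.16 ± 0.11, adjusted p = 0.336), and its groups overlapped.

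POLE2, the second subunit of polymerase epsilon, had 1.97, 1.96 and 2.95 CPM with the inhibitor and 4.33, 3.62 and 4.41 CPM with DMSO. With 18 to 22 counts per inhibitor library its error was the widest of the group (log2 fold change -0.87 ± 0.25, adjusted p = 0.0169). It was no longer called without inhibitor replicate 1 or 2 or DMSO replicate 1 or 3 (adjusted p from 0.0521 to 0.0834) and against a fold of 1.2 (0.0658). POLE, the catalytic subunit on the leading strand, had 16.9, 14.7 and 14.9 CPM with the inhibitor and 19.5, 24.1 and 21.4 CPM with DMSO (log2 fold change -0.48 ± 0.14, adjusted p = 0.0145). It was not called without inhibitor replicate 2 (0.0605), without DMSO replicate 2 (0.0934) or against a fold of 1.2 (0.144).

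POLA2, the regulatory subunit of polymerase alpha, had 29.5, 38.0 and 25.3 CPM with the inhibitor and 54.7, 49.0 and 45.4 CPM with DMSO, without overlap (log2 fold change -0.68 ± 0.13, adjusted p = 9.09e-04). PRIM1, the catalytic primase subunit, had 20.5, 26.7 and 21.0 CPM with the inhibitor and 34.1, 31.4 and 32.2 CPM with DMSO. The groups were apart (log2 fold change -0.52 ± 0.13, adjusted p = 0.00559), with an adjusted p of 0.0794 against a fold of 1.2. POLA1, the catalytic subunit of polymerase alpha, stood at -0.25 ± 0.13 and was not called. The count of genes that fell in this role group was 3 without inhibitor replicate 2 and 2 in the test against a fold of 1.2.

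Of the clamp, maturation and chromatin assembly genes, those for the clamp unloader ATAD5 and for CHAF1A and CHAF1B of the histone chaperone CAF-1 fell most. ATAD5 had 4.21, 3.70 and 4.02 CPM with the inhibitor and 9.61, 10.2 and 12.1 CPM with DMSO, from 30 to 47 counts per inhibitor library and 146 to 158 per DMSO library. Every inhibitor library had less than 50% of the lowest DMSO library (log2 fold change -1.41 ± 0.18, adjusted p = 1.04e-05). CHAF1A, the large CAF-1 subunit, had 29.4, 28.8 and 28.4 CPM with the inhibitor and 64.0, 65.3 and 64.3 CPM with DMSO. Both groups were tight, and the level was 44.7% of that with DMSO (log2 fold change -1.16 ± 0.11, adjusted p = 7.85e-08). CHAF1B, the middle subunit, had 18.7, 23.0 and 19.2 CPM with the inhibitor and 37.8, 40.7 and 37.7 CPM with DMSO (log2 fold change -0.94 ± 0.12, adjusted p = 9.86e-06).

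PCNA, the sliding clamp, fell by 0.77 on the log2 scale, with 61.4, 82.8 and 65.9 CPM with the inhibitor and 113, 126 and 120.0 CPM with DMSO. FEN1, the flap nuclease that trims Okazaki fragments, had 58.4, 56.4 and 49.7 CPM with the inhibitor and 97.1, 100.1 and 95.2 CPM with DMSO (log2 fold change -0.83 ± 0.11, adjusted p = 7.91e-06). LIG1, the ligase that seals those fragments, was not called (-0.20 ± 0.11, adjusted p = 0.241) and its groups overlapped. FEN1 over LIG1 was at -0.10, -0.51 and -0.60 log2 units in inhibitor libraries and at 0.36, 0.25 and 0.08 in DMSO libraries, apart but picked after the values were seen.

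Of the genes of the clamp loader RFC, 2 were called and 3 were not, and a difference between its subunits was not tested. RFC3 fell (-0.80 ± 0.12, adjusted p = 7.66e-05) and so did RFC2 (-0.43 ± 0.12, adjusted p = 0.012). RFC2 was not called without DMSO replicate 2 (0.0707), without DMSO replicate 3 (0.0625) or against a fold of 1.2 (0.187). RFC5 (-0.40 ± 0.17), the large subunit RFC1 (-0.16 ± 0.10) and RFC4 were not called. RFC5 was called with library totals as the scaling (adjusted p = 0.0401) and without DMSO replicate 1 (0.0373). RFC4 had 61.0, 64.8 and 71.7 CPM with the inhibitor and 67.9, 77.4 and 72.2 CPM with DMSO, which overlapped (log2 fold change -0.14 ± 0.11, adjusted p = 0.381). In GENCODE 29, exons of RFC4, RFC5 and MCM2 overlap EIF4A2, WSB2 and TPRA1 on the opposite strand. Since no strand setting of the counting is stated, the values of these genes are uncertain.

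RPA1 and RPA2, subunits of the protein that coats single-stranded DNA, fell by 0.30 and 0.52 on the log2 scale. The RPA2 adjusted p was 0.00327, and 0.0616 against a fold of 1.2. The RPA1 call (adjusted p = 0.0342) was lost in 7 alternatives (adjusted p from 0.053 to 0.518), 4 of which left out 1 library. RPA3 had 0 counts in all 6 libraries. A floor of 3 counts is 0.263 to 0.392 CPM with the inhibitor and 0.196 to 0.25 CPM with DMSO. In GENCODE 29 its exons overlap UMAD1 and AC007161.3 on the opposite strand. Whether its amplicon can be counted was not tested, so 0 counts do not show that its mRNA was absent.

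UHRF1, which reads hemimethylated DNA behind the fork and recruits DNMT1, fell by 0.76 on the log2 scale (adjusted p = 1.03e-04). DNMT1, the maintenance DNA methyltransferase, had 182, 174 and 129 CPM with the inhibitor and 157, 172 and 161 CPM with DMSO. The groups were mixed, and inhibitor replicate 3 was the lowest library (log2 fold change -0.01 ± 0.12, adjusted p = 0.956). UHRF1 over DNMT1, a pair picked after its values were seen, was at -1.55, -1.83 and -1.51 log2 units in inhibitor libraries and at -0.91, -0.98 and -0.75 in DMSO libraries.

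**Figure D3:**
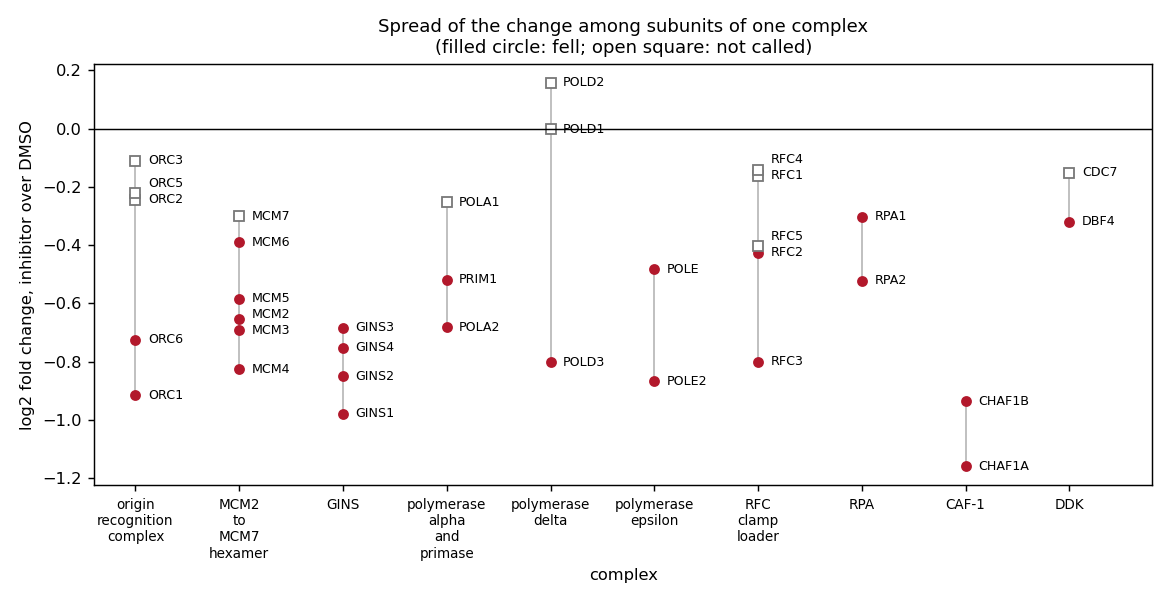
log2 fold change (inhibitor over DMSO) of the tested members in 10 complexes, 1 column each. Filled circles are genes that fell and open squares are genes not called. POLD4, POLE3 and POLE4 are not members and are not drawn. GINS spans -0.98 to -0.68 and CAF-1 -1.16 to -0.94, whereas the polymerase delta members span -0.80 to 0.16 and the origin recognition complex -0.91 to -0.11.

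The 5 other S-phase genes all fell, and in each the groups were apart. FAM111B, a serine protease gene, had 12.4, 14.8 and 14.9 CPM with the inhibitor and 57.2, 65.1 and 61.3 CPM with DMSO. At 22.9% of the DMSO level, its log2 fold change of -2.13 ± 0.12 (adjusted p = 3.73e-11) was the second lowest of all 11391 tested genes. FAM111A, its relative, which helps forks pass protein obstacles, had 17.9, 20.2 and 18.5 CPM with the inhibitor and 35.4, 30.3 and 31.4 CPM with DMSO (log2 fold change -0.78 ± 0.12, adjusted p = 1.03e-04). WDR76, a WD40 protein gene, had 13.4, 12.8 and 9.92 CPM with the inhibitor and 31.9, 34.5 and 36.3 CPM with DMSO. Every inhibitor library was under 50% of every DMSO library (log2 fold change -1.49 ± 0.14, adjusted p = 5.44e-08).

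ATAD2, a bromodomain ATPase that binds acetylated histones, had 66.5, 60.9 and 60.8 CPM with the inhibitor and 98.6, 122 and 109 CPM with DMSO. The log2 fold change was -0.81 ± 0.11 (adjusted p = 1.59e-05). HELLS, a chromatin remodeller needed for DNA methylation, had 12.6, 14.6 and 15.7 CPM with the inhibitor and 20.4, 27.4 and 25.9 CPM with DMSO (log2 fold change -0.79 ± 0.14, adjusted p = 4.94e-04). Neither gene had overlapping groups.

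Whether partner genes changed unequally was asked with the log2 ratio of their counts inside each library, which no scaling factor enters. Of 8 pairs set for this, 7 could be formed, and p-values were adjusted over those 7. The two-sided exact permutation test of 3 against 3 cannot go below 0.1, so no pair could pass 0.05. FAM111B over FAM111A was at -0.53, -0.45 and -0.31 in inhibitor libraries and at 0.69, 1.099 and 0.96 in DMSO libraries. The mean ratio differed by -1.35 log2 units, inhibitor minus DMSO, with the groups apart (exact permutation p = 0.1, adjusted p = 0.233).

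CDT1 over GMNN was at 3.11, 2.36 and 2.46 in inhibitor libraries and at 2.14, 1.89 and 2.14 in DMSO libraries. The CDT1 count thus stood higher relative to the GMNN count in every inhibitor library than in any DMSO library. The log2 ratio had an SD of 0.41 over the inhibitor libraries and 0.15 over the DMSO libraries. Its mean differed by 0.59, inhibitor minus DMSO (exact permutation p = 0.1, adjusted p = 0.233). These are ratios of mRNA counts, and protein was not measured. Inhibitor replicate 1 was the highest of the 6. CHAF1B over CHAF1A was at -0.65, -0.33 and -0.56 in inhibitor libraries and at -0.76, -0.68 and -0.77 in DMSO libraries, a difference of 0.22 with the groups barely apart (exact permutation p = 0.1, adjusted p = 0.233).

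The other pairs overlapped between groups. The inhibitor minus DMSO difference of the log2 ratio was -0.66 for ORC1 over ORC2 (exact permutation p = 0.2), where DMSO replicate 3, at -0.23, fell among the inhibitor libraries at -0.13, -0.33 and -0.64. It was -0.17 for DBF4 over CDC7 (exact p = 0.2), -0.17 for GINS2 over GINS3 (exact p = 0.4) and -0.31 for POLE2 over POLE (exact p = 0.3). Their p-values adjusted over the 7 pairs were 0.28 to 0.4, which does not show that the partners changed alike.

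**Figure D4:**
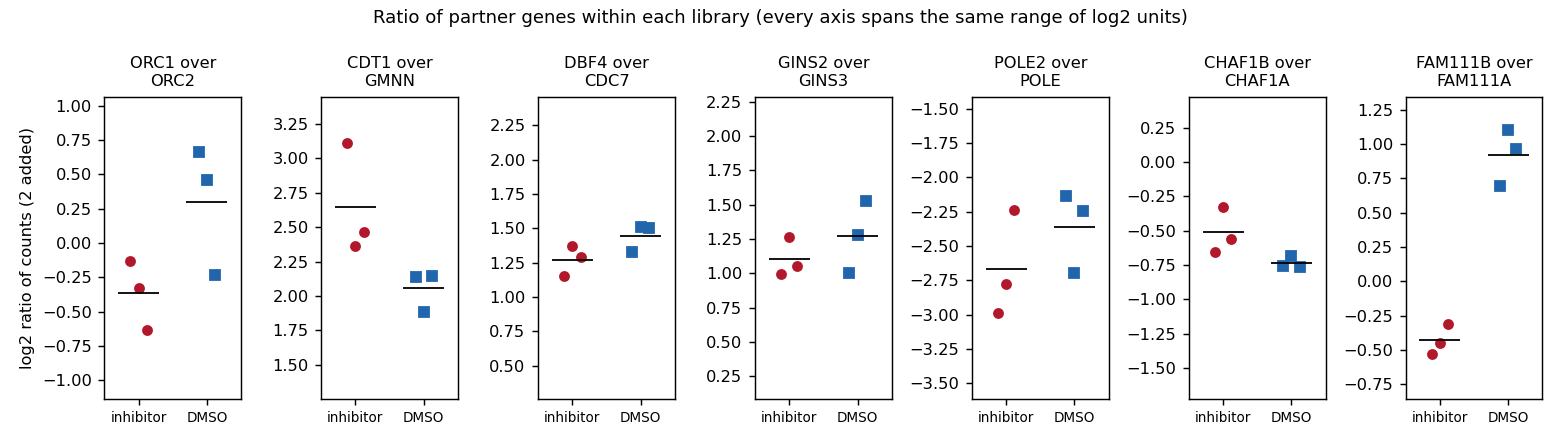
log2 ratio of the counts of 2 partner genes (2 counts added to each) in each inhibitor library (circles, left) and DMSO library (squares, right) for 7 pairs, with a line at each mean. The groups are apart for CDT1 over GMNN, CHAF1B over CHAF1A and, with a difference of -1.35 log2 units, FAM111B over FAM111A.

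Across the 51 tested genes the log2 fold change was only weakly related to the level with DMSO (Pearson r = 0.17, Spearman rho = 0.12) or to the gene's span on the chromosome (r = 0.15, rho = 0.16). These are descriptions over genes measured in the same 6 libraries. The DMSO level is also the denominator of the fold change, and amplicon levels of different genes are not on a common scale. No conclusion is drawn from the correlation with level. In GENCODE 29, an exon of 12 of the 54 genes overlaps another gene of the count tables, and 7 have a pseudogene named after them, among them PCNA, FEN1 and RFC3, so values of these genes may include or lose shared reads. RPA1 overlaps SMYD4 on the opposite strand, as CHAF1A does UBXN6, DBF4 does SLC25A40, GINS2 does GSE1 and MCM7 does AP4M1. So do FEN1 with TMEM258, PRIM1 with HSD17B6 and ORC4 with ACVR2A and MBD5. On the same strand, FEN1 overlaps FADS2, CHAF1B overlaps MORC3 and PRIM1 overlaps NACA. A strand setting would not separate those reads, so the values of FEN1, CHAF1B and PRIM1 carry this limit too.

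Of 36 other genes of the replication machinery, all tested, 15 fell, 1 rose and 20 were not called, where 10.3% of all tested genes fell and 9.92% rose. Their median log2 fold change was -0.32. CLSPN, the checkpoint adaptor at the fork, had 28.9, 33.9 and 22.9 CPM with the inhibitor and 64.0, 64.8 and 64.8 CPM with DMSO (log2 fold change -1.17 ± 0.13, adjusted p = 6.90e-07). DTL, which directs degradation of CDT1, fell by 1.04 and the fork protection gene TIPIN by 0.84 on the log2 scale. POLD4, the small subunit of polymerase delta, had 92.4, 78.3 and 83.9 CPM with the inhibitor and 71.5, 63.3 and 57.8 CPM with DMSO. It was the single gene of that list that rose (0.40 ± 0.11, adjusted p = 0.0134), a call lost without inhibitor replicate 1, DMSO replicate 2 or DMSO replicate 3 and against a fold of 1.2.

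Promoters of 44 of the 54 genes were in the RefSeq table, as 250 bases before to 50 bases after the annotated start. An E2F-type match of 7 letters, on either strand and spelled as above, was found in 31 of these 44, against 13.1% of all 27305 promoters and 21.3% of those of tested genes. Of the genes that fell, 21 of 28 held one (75.0%), and of the tested genes not called, 10 of 14 (71.4%). Both shares were above that of all promoters, and they were not tested against each other. With a further T in front of the motif, 15 of 28 and 6 of 14 held it, against 5.63% of promoters of tested genes and 3.33% of all promoters. MCM6 held 4 E2F-type matches in overlapping pairs, and MCM3, MCM7, POLA1 and LIG1 held 3 each, of which MCM7, POLA1 and LIG1 were not called.

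CCAAT on either strand was in 16 of 28 promoters of genes that fell and in 8 of 14 of those not called (57.1% each), against 37.3% of promoters of tested genes and 35.7% of all promoters. In 5 members an E2F-type and a CCAAT match overlapped, and in 5 a pair of E2F-type matches overlapped each other and counted as 2. The CHR motif TTTGAA, known from genes of later cell cycle phases, was found in DBF4 alone, while 9.58% of promoters of tested genes and 15.4% of all promoters held it. Over all tested genes with a promoter in the table, 15.2% of the 1900 with the 7-letter match fell and 8.11% rose, and of the 7018 without it 9.42% fell and 9.73% rose. A match is a run of letters and does not show that a factor binds there.

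**Figure D5:**
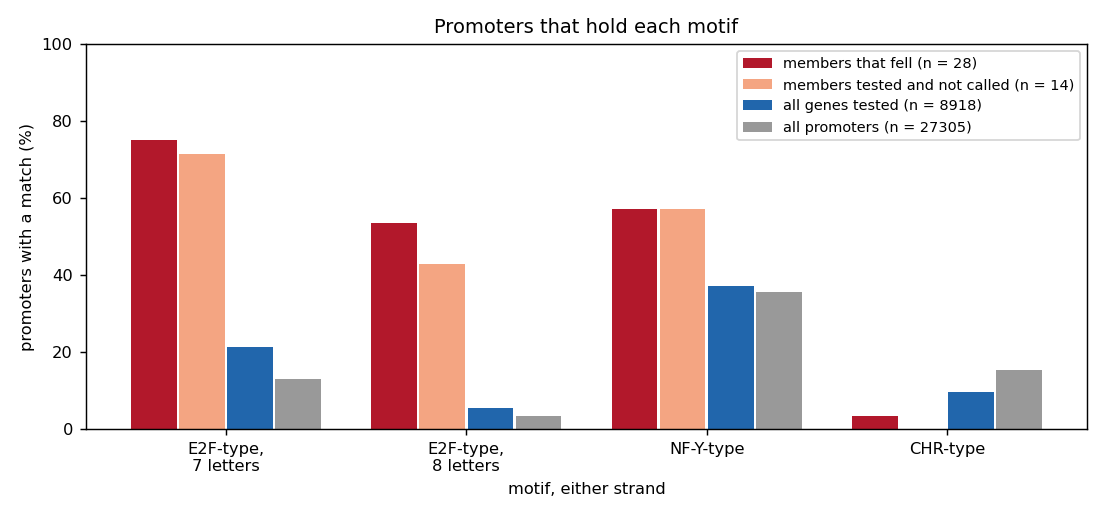
Share of promoters (%) with at least 1 match to each motif on either strand in the 250 bases before to 50 bases after the start, for members that fell (n = 28), members tested and not called (n = 14), all genes tested (n = 8918) and all promoters (n = 27305). The 7-letter E2F-type match stands at 75.0% and 71.4% in the member groups and at 13.1% over all promoters.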

How the data were processed

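The authors deposited raw counts of reads per gene symbol, 1 table per library, made with the Ion AmpliSeq Transcriptome panel and read on the Ion Proton, per the labels' protocols. The submitters' processing notes name HTSeq, DESeq2 1.20.0 and the build hg19 without roles. For aligner, annotation and strand setting: not given in the sources used here. The tables give no positions, so coordinates come from the RefSeq table of GRCh38.p14 alone.

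Groups were taken from the sample titles. All genes were fitted in R 4.3.3 with edgeR 4.0.16: filterByExpr left 11391 of 20683 genes with 99.9% of the counts, and TMM factors ran from 0.973 to 1.05. Inhibitor and DMSO libraries were compared by the quasi-likelihood test (glmQLFit, glmQLFTest, no covariates) with Benjamini-Hochberg adjustment over all tested genes and calls at an adjusted p under 0.05. "Rose" and "fell" mean such calls. Each SE is the size of the log2 fold change over the root of its F. Levels are CPM with TMM factors. Floors cover counting error only, since amplified reads carry no molecular identifiers and need not be independent molecules.

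Within groups, libraries differed by more than counting noise (chi-square over its degrees of freedom, 9.32 to 14.7), so each counted as 1 replicate. For gene pairs, log2 ratios with 2 counts added went into a two-sided exact permutation test (scipy 1.17.1). Values are given for the 4 largest calls and 2 smallest changes of each role group and for the genes of the pairs; others were chosen after their values were seen. The members, role groups and lists were chosen with earlier results of these data known. Alternatives were other scalings, filters and tests (DESeq2 1.42.0, limma 3.58.1 voom, a fold of 1.2), a replicate block, thinned libraries and each library left out. The procedure was tested on simulated counts.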

Additional observations from a re-analysis of the deposited data

How the results depend on the processing

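The count of members that fell was 33 to 39 under every alternative but the test against a fold of 1.2 (27), and 0 rose under any of them. Of the 37 genes that fell, 27 were called under each of the 16 alternatives that tested them and 31 whichever library was left out. The replicate block gave 38 that fell; same-numbered libraries did not deviate together (correlations of -0.0166 to 0.0317), so the numbers were not read as pairs, and MCM7 was called with the block. With library totals, which shifted the median of all genes to -0.0677, 39 members fell and their median was -0.76. Against a fold of 1.2, 2 polymerase genes fell, 0 other replication genes rose, and 380 of all genes fell and 449 rose. Leaving out 1 library gave 3 to 5 polymerase genes that fell, 0 to 1 other replication genes that rose, and 721 to 1113 of all genes that fell and 684 to 1133 that rose, the lowest without DMSO replicate 2. POLD1 and DNMT1, both near 0, changed sign: POLD1 was at 0.021 with upper-quartile scaling, 0.0097 with a minimum of 10 CPM, 0.027 in thinned libraries and -0.078 to 0.053 with 1 library left out, and DNMT1 at 0.012 with that scaling, at 0.0012 with that minimum, and at -0.11 to 0.12. The pair ratios kept their sign with 0.5 or 10 counts added and with any library left out. The filter on low counts kept ORC4, with 2 to 9 counts a library, out of the tests. E2F-type matches counted in the 150 bases before the start alone were in 13 of 28 promoters of genes that fell, 7 of 14 of those not called and 2045 of all.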
